A study of Homo sapiens with 9 samples.

Results

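The mRNAs described here encode the machinery that moves proteins into the endoplasmic reticulum (ER) and between membrane compartments. Members were chosen by gene symbol alone, from the name stems of the signal recognition particle (SRP) and its receptor, the Sec61 translocon, the translocon-associated protein (TRAP, symbols SSR) complex, signal peptidase, the COPII and COPI coats, the tethering complexes TRAPP, COG and exocyst, and the vacuolar protein sorting (VPS) genes. The rule took 107 of the 42785 gene symbols in the tables. They comprised 8 SRP and SRP receptor genes, 6 Sec61 translocon genes, 4 TRAP genes, 5 signal peptidase genes, 14 COPII genes, 8 COPI genes, 15 TRAPP genes, 8 COG genes, 8 exocyst genes and 31 VPS genes. The name stem SEC22 brought the SNARE SEC22B and its relatives into the COPII class, and the stem VPS brought in VPS72, which encodes a subunit of chromatin complexes.

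SH-SY5Y is an established human neuroblastoma line, and its lysates were used to ask which mRNAs come down with 2 axon guidance receptors. DCC-IP libraries were made from RNA precipitated with a mouse antibody to DCC, the Netrin-1 receptor, and Nrp1-IP libraries from RNA precipitated with a rabbit antibody to Nrp1, the Sema3A receptor. Input libraries were made from the lysate itself, and each of the 3 groups held 3 libraries, from cells that carried no labelled treatment or allele. Libraries of a control antibody were not analysed here, and both pulldowns were compared with the same 3 Input libraries.

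Proteins bound for the cell surface or for secretion are recognised by SRP as they emerge from the ribosome, docked at the SRP receptor and threaded through the Sec61 channel, where signal peptidase removes the signal peptide. COPII coats then carry cargo out of the ER, COPI coats carry it back and within the Golgi, and tethers and SNAREs bring vesicles to their targets. The VPS proteins sort cargo at endosomes and lysosomes, in complexes such as GARP, retromer, HOPS, CORVET and ESCRT. In neurons this route delivers guidance receptors to the growth cone and returns them after endocytosis.

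The libraries held 8838296 to 11055895 counts on genes. The floor used here, 3 counts, equalled 0.271 to 0.339 CPM (counts per 1000000 on genes). It is not an upper limit on the level of a gene at 0, as EXOC8 had 72, 0 and 596 counts over the DCC-IP libraries. DCC-IP stood apart from the other groups, because MAP1B, a microtubule-associated protein, took 40.3 to 52.1% of its gene counts and 1.58 to 2.44% of those in the other 6 libraries. DCC-IP replicate 1 had counts on the fewest genes, 6652, and Nrp1-IP replicate 3 on the most, 12240. The DCC mRNA had 0 counts in all 9 libraries, and NRP1 had 0 to 26 counts over the DCC-IP libraries, 36 to 83 over the Nrp1-IP ones and 198 to 320 over those of Input. Of 13 sympathoadrenal neuroblastoma markers, TH was at 0 in all 9 libraries, and the list took 0.182 to 0.331% of gene counts in DCC-IP libraries, 0.118 to 0.151% in Nrp1-IP ones and 0.0232 to 0.0436% in those of Input. The 9 markers of the substrate-adherent, mesenchymal cells of the same line took 0.0004 to 0.00159%, 0.000463 to 0.00155% and 0.000309 to 0.0097%, with COL1A2, SNAI2 and TGFBR2 at 0 throughout. ISL1, on the first list, was called higher than Input in both pulldowns, and among nuclear-retained RNAs NEAT1 and MEG3 were at 0 and MALAT1 had 1685 counts in DCC-IP replicate 3. The part of these differences in the results on trafficking mRNAs was not tested, and in bulk libraries fewer cells of a type and less RNA per cell cannot be told apart.

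The trafficking mRNAs as a whole took 0.518 ± 0.00993% (SD, n = 3) of gene counts in DCC-IP libraries, 1.47 ± 0.0569% of those in Nrp1-IP ones and 1.11 ± 0.0133% for Input. The 3 ranges of these shares did not overlap. On the TMM scale (edgeR's trimmed mean of M values) used for the CPM of single genes, the summed level of the members was 3634 to 6512 CPM in DCC-IP libraries, 12384 to 13852 CPM in Nrp1-IP ones and 12251 to 15515 CPM for Input, so that DCC-IP was lowest on both scales while Nrp1-IP and Input overlapped. With MAP1B taken out of the total, the shares became 0.994 ± 0.129%, 1.50 ± 0.0533% and 1.14 ± 0.0147%. In the Nrp1-IP and Input libraries, much of the members' total lay in 5 genes, SRPRB, SEC22B, TRAPPC2, SSR1 and SRP9. These are also the genes that were higher in Nrp1-IP than in DCC-IP, so that their choice fixes this direction. Together they took 15.96 to 37.15% of the members' counts in DCC-IP libraries, 69.0 to 70.7% of those in Nrp1-IP ones and 64.2 to 68.6% for Input. The other members took 0.318 to 0.440% of gene counts in the DCC-IP libraries, 0.435 to 0.448% of those in Nrp1-IP and 0.346 to 0.396% for Input, and the DCC-IP range overlapped both others. With MAP1B out of the total, the share of these other members was 0.534 to 0.873% in DCC-IP libraries, above the 0.446 to 0.458% of Nrp1-IP and the 0.353 to 0.405% of Input without overlap. Leaving out genes called higher in Nrp1-IP tilts what remains towards DCC-IP, so this order is partly fixed by their choice. It also depended on the scale, as the ranges overlapped with MAP1B in the total. A large part of the share of the other members lay on 1 gene, VPS53. In DCC-IP it had 29068, 24273 and 12353 of the members' 57593, 57997 and 52559 counts. With MAP1B out of the total, the GARP genes, nearly all VPS53, took 0.203 to 0.527% in DCC-IP libraries. They took 0.200 to 0.257% in Nrp1-IP ones and 0.133 to 0.224% for Input, and these ranges overlapped. The TMM scale and the totals without MAP1B were chosen for these shares after seeing the data.

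**Figure D1:**
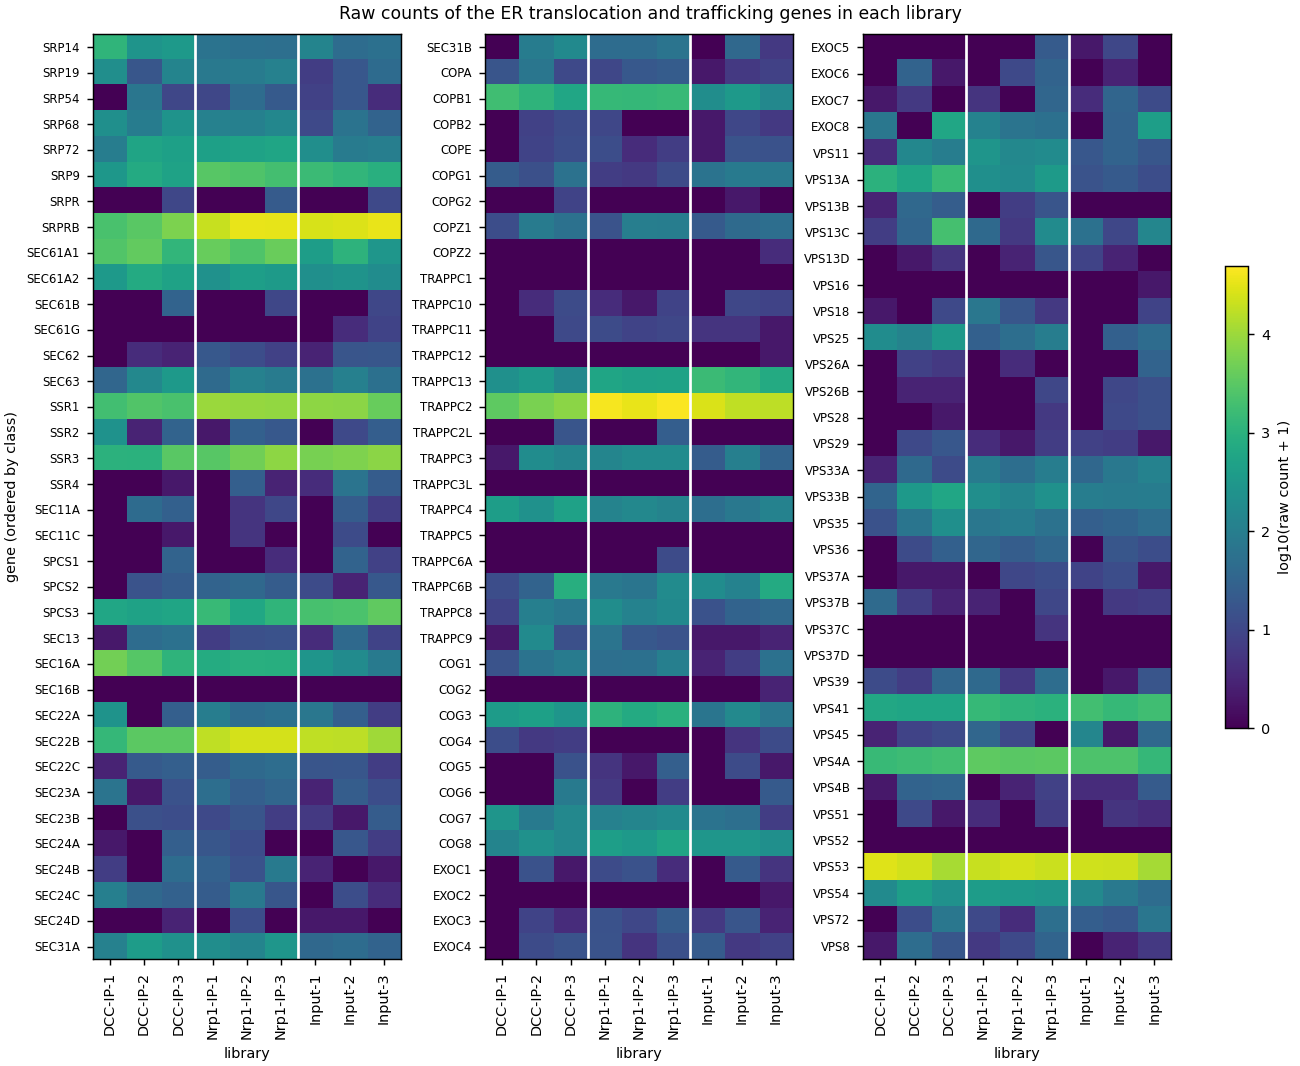
Raw counts of all 107 genes (rows, ordered by class) in the 9 libraries (columns), coloured by log10 of the count plus 1. SRPRB, SEC22B and TRAPPC2 are brighter in the Nrp1-IP and Input columns than in the DCC-IP columns, VPS53 is bright in all 9, and 6 rows are at 0 throughout.

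Detection was uneven across the members. Of the 107 genes, 34 had more than 3 counts in all 9 libraries, 15 had at least 100 counts in each, and 7 had at least 1000 in each. Those 7 were SRPRB, SSR1, SSR3, SEC22B, TRAPPC2, VPS4A and VPS53. SEC16B, TRAPPC1, TRAPPC3L, TRAPPC5, VPS37D and VPS52 were listed at 0 in all 9 libraries, and 11 genes, these 6 included, never exceeded 3 counts. Of the 42785 genes in the tables, 25408 were listed at 0 in all 9 libraries, among them RPS18, a ribosomal protein gene that every cell uses, and GAPDH, a glycolytic enzyme gene, ranged from 0 to 352 counts. A listed 0 therefore does not show that an mRNA was absent from the cells, and shares within TRAPP and GARP leave out subunits listed at 0. More than 3 counts in all 3 libraries were found for 40 genes in the DCC-IP group, 60 in the Nrp1-IP group and 41 for Input.

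In several classes most reads lay on 1 gene, as shares of raw counts that were not divided by transcript length. In the GARP tether, VPS53 held 98.1 to 99.6% of the counts on the 4 subunit genes. In TRAPP, TRAPPC2 held 80.9 to 97.5%, in signal peptidase SPCS3 held 87.9 to 100%, in the ESCRT genes VPS4A held 83.6 to 99.5%, and in HOPS and CORVET VPS41 held 70.7 to 97.4%. SRPRB held 52.6 to 96.8% of the counts on SRP and its receptor, and SEC22B held 19.3 to 98.3% of those on the COPII class, with both low ends in DCC-IP. Other classes were less uneven or varied between libraries: SSR1 held 34.3 to 76.2% of the TRAP counts, COG3 15.5 to 64.2% of the COG counts, EXOC8 0 to 98.6% of the exocyst counts and VPS13A 7.74 to 99.3% of the counts on the VPS13 genes.

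**Figure D2:**
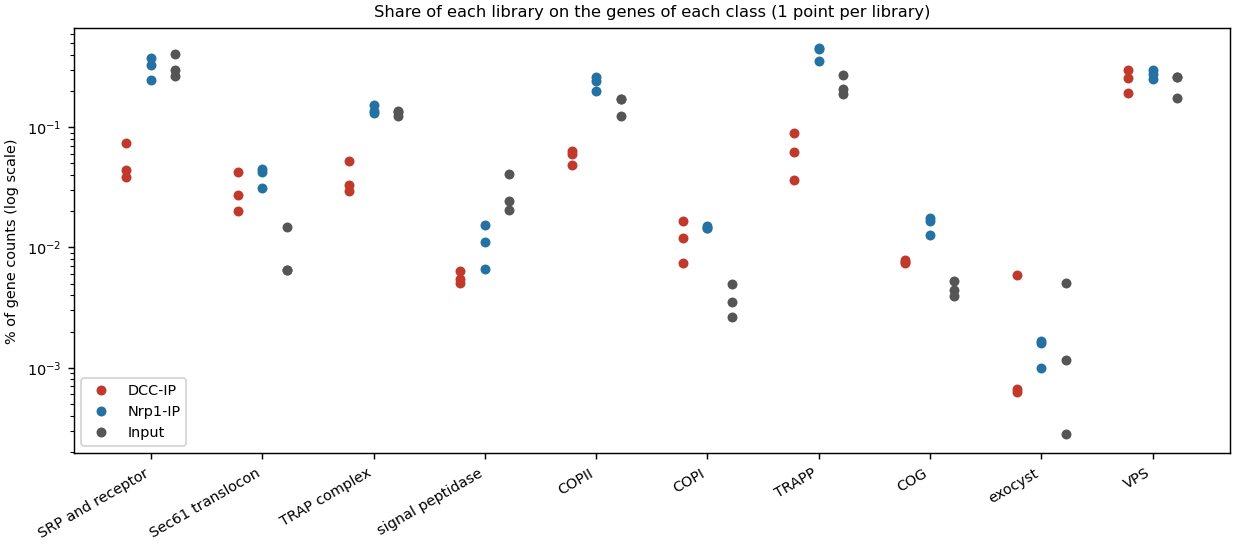
Share of gene counts (percent, log scale) on each of the 10 classes, with 1 point per library. The SRP, TRAP, COPII and TRAPP classes are lowest in the 3 DCC-IP libraries, the Sec61 and COPI classes are lowest in the Input libraries, and the VPS class overlaps in all groups.

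Differences were tested with edgeR's quasi-likelihood test on all genes that passed the count filter in each pair of groups, with Benjamini-Hochberg adjustment over those genes. A gene was called where its adjusted p was under 0.05. This is the main fit, and a call given without a named setting refers to it. The filter let through 71 of the 107 genes in at least 1 comparison and 54 in all 3. Called in at least 1 comparison were 17 genes, of which 5 were called in 2 comparisons and 0 in all 3. In Nrp1-IP over DCC-IP, 5 of 64 genes tested were called higher, beside 2.56% of all 6439 genes tested, and 1 was called lower, beside 1.09%. In DCC-IP over Input, 2 of 58 were called higher, beside 1.46% of all 6223 genes, and 8 lower, beside 3.52%. In Nrp1-IP over Input, 5 of 64 were called higher, beside 1.94% of all 6501 genes, and 1 lower, beside 3.03%.

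Calls were more frequent among abundant genes generally. Among genes with a mean of at least 100 CPM, 25.9% of all genes and 5 of 11 members were called in either direction in Nrp1-IP over DCC-IP, 29% of all genes and 8 of 12 members in DCC-IP over Input, and 19.2% of all genes and 1 of 11 members in Nrp1-IP over Input. The median log2 fold change of the members tested was 0.19 in Nrp1-IP over DCC-IP, where that of all genes was -0.27. It was 0.76 beside 0.16 in DCC-IP over Input, and 0.47 beside 0.06 in Nrp1-IP over Input. The all-gene median moved with the scaling, from -0.27 to -0.02, from 0.00 to 0.48 and from -0.13 to 0.44 respectively, so that small fold changes have no fixed sign. At an unadjusted p under 0.05 there were 12, 16 and 18 members in the 3 comparisons.

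**Figure D3:**
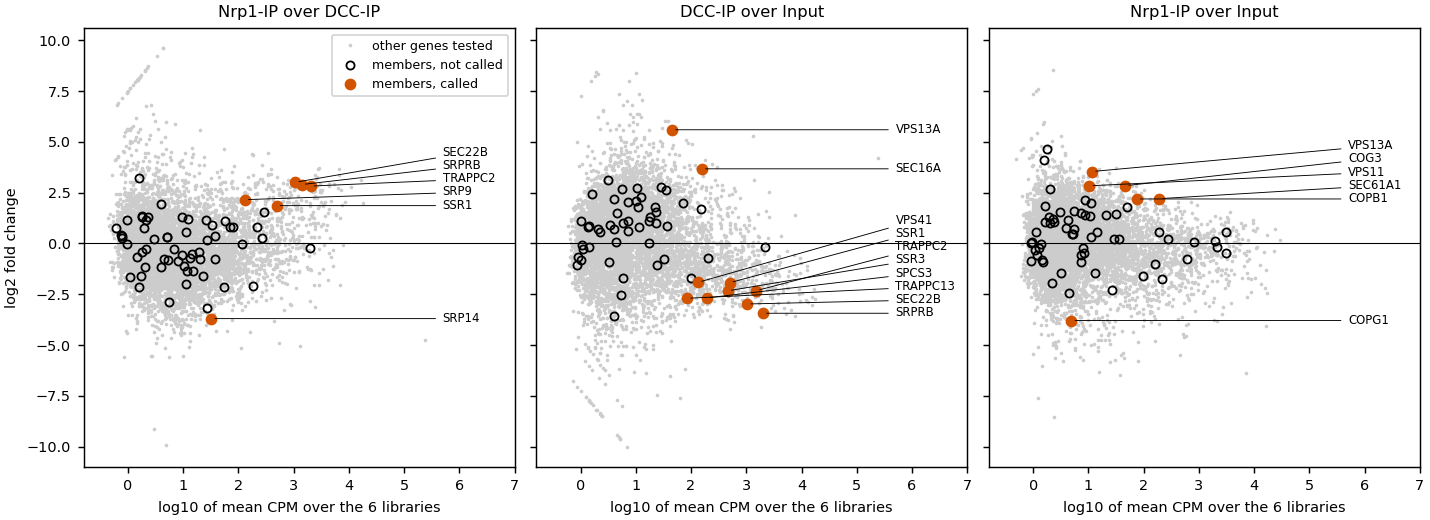
Log2 fold change (vertical axis) against log10 of the mean CPM over the 6 libraries compared (horizontal axis), for every gene tested. Filled circles are called members, open circles are members that were not called and grey dots are other genes. The called members of the first 2 panels lie mostly at high CPM, and those of Nrp1-IP over Input lie at lower CPM.

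In the targeting step, the mRNA of the SRP receptor's membrane anchor was lower in DCC-IP than in either other group. SRPRB, which encodes that membrane-spanning GTPase subunit, had 2235, 3113 and 5965 counts over the DCC-IP libraries, 20001, 34637 and 33248 over the Nrp1-IP ones and 26487, 28333 and 34401 over those of Input. Every DCC-IP library was below every library of the other groups. The log2 fold change was 2.90 (SE 0.37, adjusted p = 0.00303, edgeR) in Nrp1-IP over DCC-IP and -3.44 (SE 0.40, adjusted p = 0.00513) in DCC-IP over Input. Nrp1-IP over Input was not called, with a log2 fold change of -0.49 (SE 0.29, adjusted p = 0.368). The older symbol SRPR, the peripheral subunit of the same receptor, had 0 counts in 6 libraries and 9, 21 and 10 in replicate 3 of DCC-IP, Nrp1-IP and Input.

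SRP9 and SRP14 encode the heterodimer that binds the Alu domain of SRP RNA and slows elongation, and their mRNAs moved in opposite directions between the pulldowns. SRP9 had 300, 756 and 503 counts over the DCC-IP libraries, 3024, 2494 and 1995 over the Nrp1-IP ones and 1605, 1264 and 905 over those of Input. SRP14 had 1192, 275 and 337 counts over the DCC-IP libraries, 61, 53 and 52 over the Nrp1-IP ones and 129, 44 and 54 over those of Input. In neither gene did DCC-IP overlap Nrp1-IP. SRP9 was higher in Nrp1-IP than in DCC-IP by a log2 fold change of 2.16 (SE 0.49, adjusted p = 0.0444, edgeR), and SRP14 was lower, with a log2 fold change of -3.70 (SE 0.82, adjusted p = 0.0424). Neither was called against Input in the main fit, where DCC-IP gave log2 fold changes of -1.71 (SE 0.54) for SRP9 and 2.62 (SE 0.88) for SRP14, and Nrp1-IP gave 0.57 (SE 0.38) and -0.93 (SE 0.63). With the replicate number as a block, SRP14 was called higher in DCC-IP than in Input, at 2.41 (adjusted p = 0.0376, edgeR). It was also called higher there with at least 10 counts in every library. SRP9 was called lower in DCC-IP than in Input with all 9 libraries in 1 fit. SRP14 in DCC-IP leaned on replicate 1: without that library the log2 fold change was -2.21 and the call was lost. Both calls were also lost without any 1 of the 3 Nrp1-IP libraries, that of SRP9 without DCC-IP replicate 1 too, and that of SRP14 with RLE scaling or with MAP1B left out.

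The other SRP proteins were not called in any comparison in the main fit. SRP72, which with SRP68 forms the larger protein heterodimer of the particle, had 99 to 559 counts over the DCC-IP libraries, 475 to 579 over the Nrp1-IP ones and 89 to 211 over those of Input. SRP68 had 92 to 258, 110 to 146 and 10 to 60 counts in the same groups. For both genes every Nrp1-IP library was above every Input library, and DCC-IP overlapped Nrp1-IP. SRP72 was called higher in Nrp1-IP over Input with library size alone or with at least 10 counts in every library. With that count filter SRP68 was called higher in DCC-IP over Input. SRP54, the GTPase that binds signal sequences, stayed between 0 and 70 counts, and SRP19, which helps to assemble the particle, had 6 to 209.

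At the translocon, SEC61A1, the channel-forming subunit, was higher in Nrp1-IP than in Input. It had 2599, 3757 and 1220 counts over the DCC-IP libraries, 4068, 2589 and 4139 over the Nrp1-IP ones and 416, 1109 and 294 over those of Input. In CPM, Nrp1-IP did not overlap Input, while DCC-IP, whose replicate 3 was lowest, overlapped both. edgeR gave a log2 fold change of 2.21 (SE 0.47, adjusted p = 0.0415) in Nrp1-IP over Input and 1.68 (SE 0.66, adjusted p = 0.181) in DCC-IP over Input, where the fit with the replicate number as a block did call it higher, at 1.73 (adjusted p = 0.0197). The call in Nrp1-IP over Input was lost with RLE factors or with all 9 libraries in 1 fit. Of the fits that left out 1 library, only that without Input replicate 2 kept it. SEC61A2, the second gene for this subunit, had 355 to 746, 241 to 426 and 189 to 260 counts in DCC-IP, Nrp1-IP and Input and was not called. SEC63, which helps to open the channel for some substrates, had 34 to 346 counts over the 9 libraries, SEC62 had 0 to 19, and the small channel subunits SEC61B and SEC61G had 0 to 30 and 0 to 8.

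The TRAP complex sits beside Sec61 and assists the entry of some proteins, and 2 of its 4 genes were lower in DCC-IP than in Input. SSR1 had 1932, 2629 and 2264 counts over the DCC-IP libraries, 9676, 8919 and 8755 over the Nrp1-IP ones and 7930, 7508 and 4016 over those of Input. SSR3 had 1058, 1013 and 3175 counts over the DCC-IP libraries, 3028, 4853 and 7879 over the Nrp1-IP ones and 5342, 6091 and 7663 over those of Input. In CPM, DCC-IP lay below both other groups for each gene, and SSR1 overlapped between Nrp1-IP and Input. Against Input, DCC-IP gave a log2 fold change of -1.93 (SE 0.40, adjusted p = 0.0318, edgeR) for SSR1 and -2.33 (SE 0.50, adjusted p = 0.0360) for SSR3. Nrp1-IP exceeded DCC-IP by 1.86 (SE 0.34, adjusted p = 0.0174) for SSR1, a call that was lost without any 1 of the 3 Nrp1-IP libraries, and by 1.53 (SE 0.46, adjusted p = 0.114) for SSR3, which was not called. SSR3 was called higher in Nrp1-IP than in DCC-IP with no filter, the replicate block or without DCC-IP replicate 3, and under no other alternative. SSR2 and SSR4 were detected unevenly, at 0 to 245 and 0 to 62 counts.

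In signal peptidase, SPCS3, a non-catalytic subunit of the complex, had 605, 501 and 583 counts over the DCC-IP libraries, 1464, 623 and 1189 over the Nrp1-IP ones and 2178, 2375 and 3552 over those of Input. Both pulldowns lay below Input in every library and overlapped each other in CPM. The log2 fold change was -2.68 (SE 0.45, adjusted p = 0.0144, edgeR) in DCC-IP over Input, and -1.77 (SE 0.43, adjusted p = 0.0608) in Nrp1-IP over Input, which was not called. SPCS3 was called lower in Nrp1-IP over Input with RLE factors, edgeR's exact test, DESeq2 or the replicate block. The same held with no filter, with at least 10 counts in every library or without Input replicate 3. It was not called there with library size alone, with MAP1B left out or with all 9 libraries in 1 fit. The catalytic subunits SEC11A and SEC11C had at most 43 and 11 counts in a library.

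**Figure D4:**
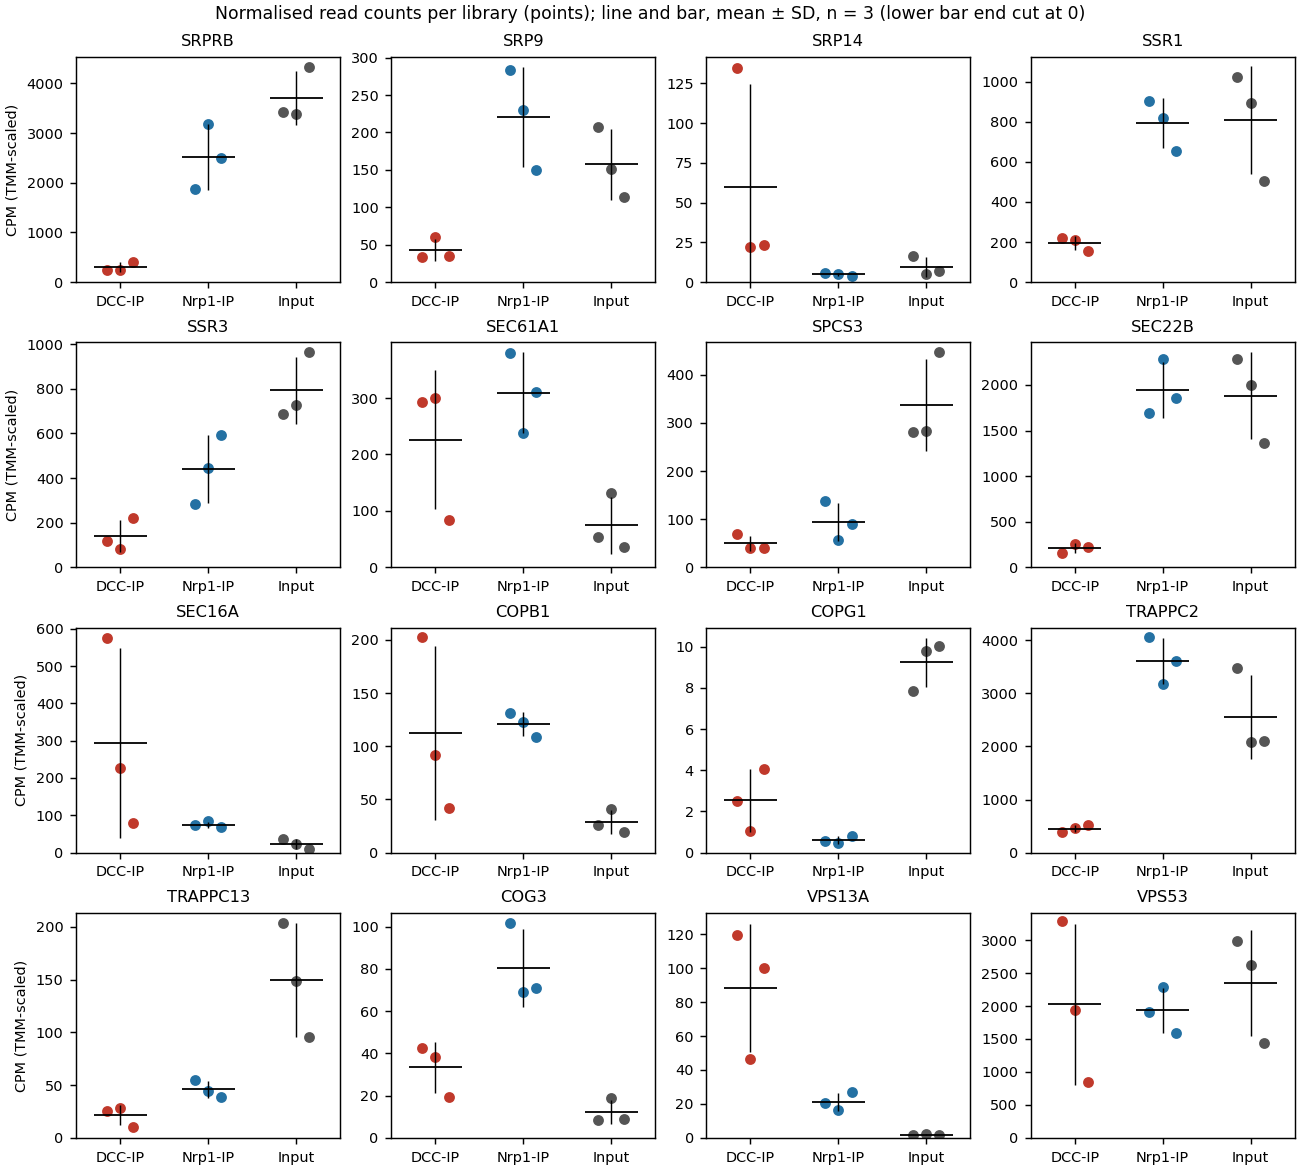
TMM-scaled CPM of 16 genes in each library (points), with the mean (horizontal line) and SD (vertical bar, n = 3) of each group and a vertical axis from 0. SRPRB, SEC22B, TRAPPC2 and SSR1 are low in all 3 DCC-IP libraries, VPS13A is highest in DCC-IP and lowest in Input without overlap, and VPS53 overlaps in all groups.

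Among the genes for ER exit, the mRNA of the SNARE SEC22B and that of the exit-site scaffold SEC16A differed in opposite directions between DCC-IP and Input. SEC22B, which fuses vesicles between ER and Golgi, had 1350, 3227 and 3254 counts over the DCC-IP libraries, 18049, 24808 and 24756 over the Nrp1-IP ones and 17711, 16792 and 10825 over those of Input. DCC-IP was lowest without overlap, and Nrp1-IP and Input overlapped in CPM. The log2 difference was 3.01 (SE 0.38, adjusted p = 0.00303, edgeR) in Nrp1-IP over DCC-IP and -2.98 (SE 0.43, adjusted p = 0.00884) in DCC-IP over Input. SEC16A, which organises ER exit sites, had 5081, 2837 and 1141 counts over the DCC-IP libraries, 782, 909 and 902 over the Nrp1-IP ones and 277, 188 and 85 over those of Input. Both pulldowns were above Input in every library, and DCC-IP spread widely, with replicate 1 highest. The log2 fold change was 3.67 (SE 0.76, adjusted p = 0.0322) in DCC-IP over Input. It was 1.79 (SE 0.49, adjusted p = 0.0803) in Nrp1-IP over Input and -2.08 (SE 0.62, adjusted p = 0.11) in Nrp1-IP over DCC-IP, which were not called. The call of SEC16A in DCC-IP over Input was lost with MAP1B left out, and on dropping any 1 library other than DCC-IP replicate 3. SEC16A was called higher in Nrp1-IP than in Input under the exact test, DESeq2, library size alone, the replicate block and the other count filters. It was called lower in Nrp1-IP than in DCC-IP without a filter or without DCC-IP replicate 3. The alternatives not named here called neither difference.

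The mRNAs of the COPII coat proteins themselves were not called in any comparison in the main fit. SEC31A, of the outer cage, had 117 to 401 counts over the DCC-IP libraries, 132 to 291 over the Nrp1-IP ones and 30 to 45 over those of Input, so that both pulldowns lay above Input without overlap. SEC13, its partner in the cage, had 1 to 56 counts over the 9 libraries. The inner coat genes SEC23A and SEC23B reached at most 62 and 22 counts, and the cargo-binding SEC24A, SEC24B, SEC24C and SEC24D reached at most 25, 84, 105 and 12. SEC24B had 6, 0 and 45 counts over the DCC-IP libraries, 28, 14 and 84 over the Nrp1-IP ones and 2, 0 and 1 over those of Input, so that Nrp1-IP lay above Input without overlap. In Nrp1-IP over Input, edgeR's exact test and DESeq2 called both SEC31A and SEC24B higher, while the main fit called neither. The quasi-likelihood test did call SEC31A higher there with library size alone or with at least 10 counts in every library. With that count filter SEC31A was also called higher in DCC-IP over Input.

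In the COPI coat, 2 of 8 genes were called in the main fit, in opposite directions and in Nrp1-IP over Input alone. COPB1, a subunit of the coat's adaptor part, had 1788, 1148 and 611 counts over the DCC-IP libraries, 1402, 1336 and 1450 over the Nrp1-IP ones and 198, 343 and 156 over those of Input. COPG1, another subunit of that part, had 22, 13 and 59 counts over the DCC-IP libraries, 6, 5 and 11 over the Nrp1-IP ones and 61, 82 and 80 over those of Input. COPB1 was above Input in all 6 pulldown libraries, and COPG1 was below Input in all 6. In Nrp1-IP over Input the log2 fold change was 2.19 (SE 0.36, adjusted p = 0.0218, edgeR) for COPB1 and -3.79 (SE 0.64, adjusted p = 0.0218) for COPG1. In DCC-IP over Input neither was called, with 1.98 (SE 0.65, adjusted p = 0.111) for COPB1 and -1.70 (SE 1.02, adjusted p = 0.389) for COPG1. The difference between the pulldowns was not called for either gene. With all 9 libraries in 1 fit, neither gene was called in Nrp1-IP over Input. COPB1 was called higher in DCC-IP over Input with at least 10 counts in every library.

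Among the tethers, TRAPPC2, like SRPRB and SEC22B, was lowest in DCC-IP. This core TRAPP subunit, mutated in spondyloepiphyseal dysplasia tarda, had 3374, 5729 and 7540 counts over the DCC-IP libraries, 43326, 34530 and 47975 over the Nrp1-IP ones and 26928, 17454 and 16715 over those of Input. DCC-IP did not overlap the other groups, and Nrp1-IP and Input overlapped in CPM. edgeR gave a log2 fold change of 2.83 (SE 0.31, adjusted p = 0.00239) in Nrp1-IP over DCC-IP, -2.33 (SE 0.38, adjusted p = 0.0134) in DCC-IP over Input and 0.57 (SE 0.30, adjusted p = 0.325) in Nrp1-IP over Input. TRAPPC2 has a near-identical copy, TRAPPC2P1, which had 0 to 66 counts in a library. Reads that did not align uniquely were not counted on genes, so reads fitting both copies may be missing from TRAPPC2. How many such reads there were is not known.

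TRAPPC13, a subunit of the larger TRAPP assembly, had 224, 352 and 156 counts over the DCC-IP libraries, 587, 485 and 515 over the Nrp1-IP ones and 1578, 1248 and 760 over those of Input. All 6 pulldown libraries were below Input in CPM. DCC-IP over Input gave -2.70 (SE 0.59, adjusted p = 0.0386, edgeR), and Nrp1-IP over Input gave -1.61 (SE 0.39, adjusted p = 0.0594), which was not called. TRAPPC13 was called lower in Nrp1-IP over Input under the same alternatives as SPCS3, and under no others. TRAPPC4 had 241 to 494 counts over the DCC-IP libraries, 127 to 158 over the Nrp1-IP ones and 49 to 120 over those of Input and was not called. TRAPPC6B varied within groups, at 12, 31 and 867 counts in DCC-IP and 196, 119 and 748 in Input. Alternatives added calls. In DCC-IP over Input, TRAPPC4 was higher with at least 10 counts in every library and TRAPPC9 with DESeq2. In Nrp1-IP over Input, the exact test and DESeq2 called TRAPPC8 and TRAPPC9 higher. Library size alone called TRAPPC8 and TRAPPC2 higher there, and the filter of 10 counts called TRAPPC8. TRAPPC6B was called lower there with DESeq2 or no filter.

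In the COG tether, which holds vesicles at the Golgi, COG3 was higher in Nrp1-IP than in Input. It had 375, 478 and 281 counts over the DCC-IP libraries, 1088, 750 and 944 over the Nrp1-IP ones and 66, 159 and 73 over those of Input, and the 3 groups did not overlap. The log2 fold change was 2.84 (SE 0.44, adjusted p = 0.0173, edgeR) in Nrp1-IP over Input and 1.53 (SE 0.71, adjusted p = 0.252) in DCC-IP over Input. COG8 had 129 to 241, 336 to 545 and 222 to 297 counts in DCC-IP, Nrp1-IP and Input and was not called. COG2 was at 0 in 8 libraries, and COG4 was at 0 in all 3 Nrp1-IP libraries and at 5 to 12 counts in DCC-IP.

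The exocyst, which tethers vesicles at the plasma membrane, had no called gene among the 4, 2 and 5 tested in the 3 comparisons. EXOC8 had 72, 0 and 596 counts over the DCC-IP libraries, 118, 64 and 54 over the Nrp1-IP ones and 0, 31 and 423 over those of Input. The groups overlapped, and replicate 3 was highest both in DCC-IP and in Input. The other 7 exocyst genes had at most 34 counts in any library.

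Of the VPS genes, VPS13A, a lipid transfer protein at membrane contact sites, was higher in both pulldowns than in Input. It had 1054, 579 and 1445 counts over the DCC-IP libraries, 221, 178 and 358 over the Nrp1-IP ones and 15, 20 and 12 over those of Input, and the 3 groups did not overlap. The log2 difference was 5.60 (SE 0.72, adjusted p = 0.00662, edgeR) in DCC-IP over Input and 3.54 (SE 0.50, adjusted p = 0.0132) in Nrp1-IP over Input, comparisons that share the Input libraries. The direct comparison of Nrp1-IP with DCC-IP gave -2.16 (SE 0.52, adjusted p = 0.0542), which was not called. VPS13A was called lower in Nrp1-IP than in DCC-IP with the exact test, DESeq2, at least 10 counts in every library or the replicate block. The other alternatives did not call this difference. Its relative VPS13C had 6, 33 and 2069 counts in DCC-IP, where replicate 3 alone was high, and 5 to 182 in the other 6 libraries.

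VPS41 and VPS11 belong to the HOPS complex, which tethers late endosomes to lysosomes, and each was called against Input in a different pulldown. VPS41 had 663, 590 and 586 counts over the DCC-IP libraries, 1401, 1142 and 1024 over the Nrp1-IP ones and 1920, 1421 and 1845 over those of Input, and in CPM all 6 pulldown libraries were below Input. VPS11 had 3, 152 and 98 counts over the DCC-IP libraries, 282, 155 and 182 over the Nrp1-IP ones and 18, 31 and 17 over those of Input, with DCC-IP spread across Input. VPS41 was lower in DCC-IP than in Input, with a log2 fold change of -1.91 (SE 0.45, adjusted p = 0.0479, edgeR), and gave -0.99 (SE 0.37, adjusted p = 0.165) in Nrp1-IP over Input. VPS11 was higher in Nrp1-IP than in Input by 2.84 (SE 0.53, adjusted p = 0.0295). Both calls were lost in every fit that left out 1 library. That of VPS11 was also lost with all 9 libraries in 1 fit. That of VPS41 was also lost with RLE factors, library size alone, MAP1B left out, DESeq2 or no filter.

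VPS53 carried most of the reads of the VPS class and was called in no comparison. This GARP subunit, which tethers endosome-derived vesicles at the trans-Golgi network, had 29068, 24273 and 12353 counts over the DCC-IP libraries, 20442, 24860 and 21271 over the Nrp1-IP ones and 23087, 21954 and 11493 over those of Input. The mean CPM was 2028 ± 1219 (SD, n = 3), 1932 ± 347 and 2347 ± 802 in the 3 groups, and the groups overlapped. Its partner VPS54 had 45 to 422 counts over the 9 libraries, VPS51 at most 10, and VPS52 none. VPS4A, the ATPase that recycles ESCRT-III, had 1498 to 1923 counts over the DCC-IP libraries, 3176 to 3476 over the Nrp1-IP ones and 1377 to 2487 over those of Input and was not called. VPS35, the core of the retromer, had 14 to 215 counts, and VPS26A, VPS26B and VPS29 had at most 30, 13 and 18.

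**Figure D5:**
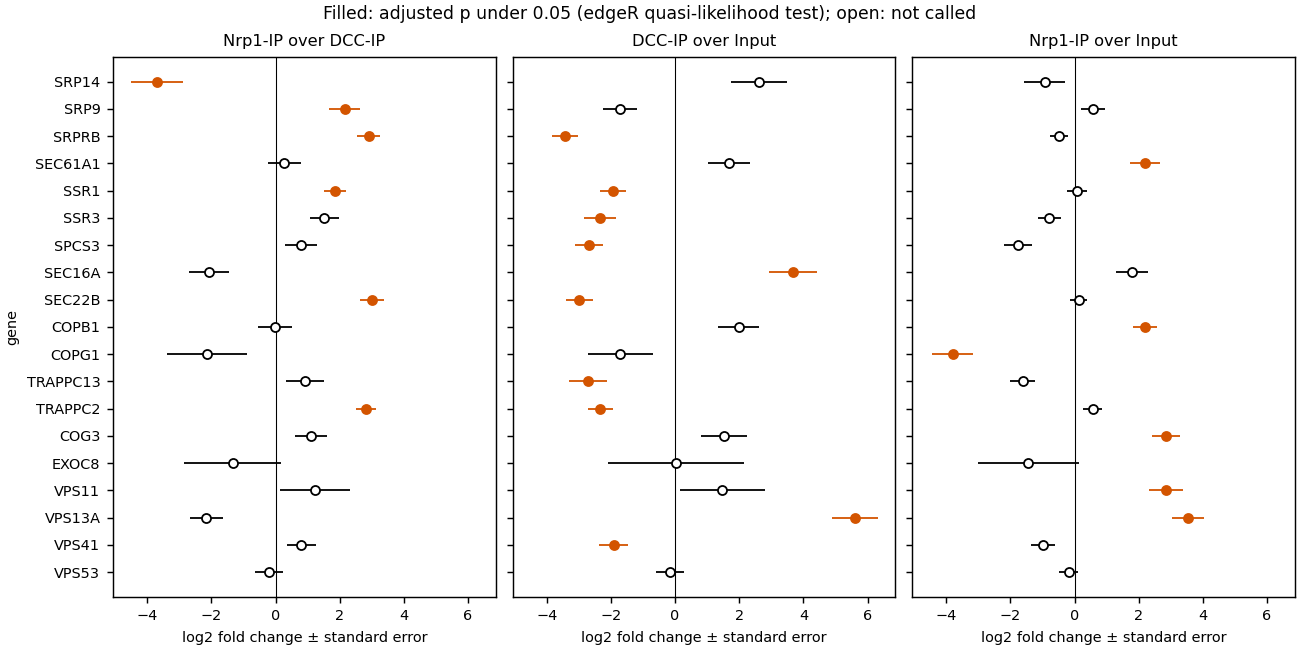
Log2 fold change with its standard error (edgeR) of 19 genes, ordered by class, in the 3 comparisons, where filled points have an adjusted p under 0.05. SRPRB, SEC22B, TRAPPC2 and SSR1 are filled in Nrp1-IP over DCC-IP and in DCC-IP over Input, on opposite sides of 0, and VPS13A is filled and positive in both comparisons with Input.

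The calls rested on the number of libraries to different degrees. In Nrp1-IP over DCC-IP, SRPRB, SEC22B and TRAPPC2 were called in all 6 fits that left out 1 library. In DCC-IP over Input, none of the 10 calls was made without DCC-IP replicate 1 or without DCC-IP replicate 2, and only that of SRPRB without Input replicate 1, while without DCC-IP replicate 3 there were 2 higher and 3 lower, without Input replicate 2 there were 1 and 3, and without Input replicate 3 there were 1 and 6. In Nrp1-IP over Input, none of the 6 calls was made without any 1 of the Nrp1-IP libraries or without Input replicate 1. Without Input replicate 2 the counts were 4 higher and 0 lower, and without Input replicate 3 they were 3 and 3. With the replicate number as a block, DCC-IP over Input called 4 genes higher, with SEC61A1 and SRP14 added, and 8 lower. With MAP1B left out it called 1 higher and 3 lower. The split of higher to lower calls also moved with the scaling, from 5 to 1 to 5 to 0 in Nrp1-IP over DCC-IP with RLE factors or with MAP1B left out, and from 5 to 1 to 4 to 3 with RLE factors and 10 to 1 with library size alone in Nrp1-IP over Input.

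Neighbouring genes of the same route were taken from 3 further lists. Over these lists together, 3 of 39 genes tested (7.69%, beside 2.56% of all genes) were called higher in Nrp1-IP over DCC-IP, 3 of 42 (7.14%, beside 3.52%) lower in DCC-IP over Input and 1 of 45 (2.22%, beside 3.03%) lower in Nrp1-IP over Input. Of 29 ER entry partners, 12, 11 and 13 were tested in the comparisons of Nrp1-IP with DCC-IP, of DCC-IP with Input and of Nrp1-IP with Input, and only STT3A, a catalytic subunit of oligosaccharyltransferase, was called, lower in DCC-IP (log2 fold change -2.79, adjusted p = 0.0126, edgeR) and in Nrp1-IP (-2.07, adjusted p = 0.0175) than in Input. Of 37 cargo receptors, coat partners and SNAREs, 18, 22 and 20 were tested. MIA3, the ER exit receptor for large cargo such as collagen, was higher in Nrp1-IP than in DCC-IP (3.53, adjusted p = 0.0170), and so was TMED4, of the p24 cargo receptor family (2.103, adjusted p = 0.0238), which was lower in DCC-IP than in Input (-2.66, adjusted p = 0.0131). Of 22 endosomal sorting partners, 9, 9 and 12 were tested, and SNX27, which couples cargo to retromer, was higher in Nrp1-IP than in DCC-IP (1.75, adjusted p = 0.00864) and lower in DCC-IP than in Input (-1.80, adjusted p = 0.0157).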

How the data were processed

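RNA from 3 DCC-IP, 3 Nrp1-IP and 3 Input samples of SH-SY5Y cells was amplified by a single-cell cDNA method without molecular identifiers and sequenced. The authors aligned reads with HISAT2 2.1.0 to hg19 and made the deposited raw counts per gene symbol with HTSeq 0.11.0; the annotation and strand setting were not given in the sources used here. The 5 HTSeq summary lines were left out of totals. Reads without a gene made up 48.7 to 55.8% and reads that did not align uniquely 2.83 to 3.83% of each library.

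Counts were tested per pair of groups with edgeR 4.0.16 (R 4.3.3; filterByExpr with a minimum count of 10, TMM, quasi-likelihood test, Benjamini-Hochberg adjustment). SE is the log2 fold change over the square root of F. CPM values used TMM factors over all 9 libraries. The study's methods state at least 3 independent biological replicates, but the labels do not tie a library to a culture, so p-values measure the spread between these libraries. Members and lists were chosen with earlier results of these data known. Members given with fold changes were those called, the one with the most counts in each class and in the comparison of pulldowns the 2 higher and 2 lower members of smallest p; others are named, after their values were seen, as parts of their complexes.

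Same-numbered libraries of DCC-IP and Input deviated together from their group means over 7628 genes (correlations 0.117, 0.187 and 0.421), so the blocked fit is given beside that comparison. The pairing comes from the numbers in the titles. The alternatives were DESeq2 1.42.0, edgeR's exact test, RLE factors, library size alone, other count filters, MAP1B left out, all 9 libraries in 1 fit, a replicate block and leaving out each library. The script was tested on simulated data.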

Additional observations from a re-analysis of the deposited data

How the results depend on the processing

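The count of members called lower in Nrp1-IP than in DCC-IP, 1 as reported, became 0 with RLE factors or without MAP1B, 2 with the exact test, DESeq2, at least 10 counts in every library or the replicate block, and 3 with no filter; the higher calls stayed within 1.5 times of 5 in all of these. In DCC-IP over Input the 2 higher calls became 1 without MAP1B, 7 with at least 10 counts in every library and 4 with the replicate block, and the 8 lower calls became 3 without MAP1B and 5 with no filter. In Nrp1-IP over Input the 5 higher calls became 10 with library size alone, the exact test or DESeq2, 9 with at least 10 counts in every library and 2 with all 9 libraries in 1 fit. The 1 lower call became 3 with RLE factors, the exact test or the replicate block, 4 with DESeq2 or no filter, 2 with at least 10 counts in every library and 0 with all 9 libraries in 1 fit. Leaving out 1 library gave 3 to 6 higher and 0 to 2 lower calls in Nrp1-IP over DCC-IP, 0 to 2 and 0 to 6 in DCC-IP over Input, and 0 to 4 and 0 to 3 in Nrp1-IP over Input. Without MAP1B the members' share of gene counts was 0.994% in DCC-IP and 1.14% in Input. On the TMM-scaled library size it was 0.493% for DCC-IP, 1.30% for Nrp1-IP and 1.37% for Input. Without MAP1B, the share of the members other than the 5 higher in Nrp1-IP was 0.737% in DCC-IP and 0.451% in Nrp1-IP. Leaving out those 5 genes partly fixes this order. VPS53 held a large part of both shares. Without MAP1B, the GARP genes, nearly all VPS53, took a mean of 0.399% in DCC-IP and 0.226% in Nrp1-IP. Cause was not tested for any of these, beyond the fewer libraries or genes that a setting uses.

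The replicate block gave 6 higher calls in Nrp1-IP over DCC-IP and in Nrp1-IP over Input. Same-numbered libraries correlated there at 0.0989, 0.113 and 0.361 and at 0.215, -0.0043 and 0.364, respectively. In both, a correlation fell below the limit of 0.1 set for pairing. Whether same-numbered libraries shared a culture cannot be read from these values. Of the fold changes of single genes recomputed under the alternatives, 460 stayed on the same side of the threshold, 104 lost their call, 35 gained one and none changed sign. On simulated counts with the spread of these libraries, a log2 change of 3 was called for 18% of the changed genes in Nrp1-IP over DCC-IP, 10% in DCC-IP over Input and 33% in Nrp1-IP over Input, so a gene that was not called is not shown to be equal between groups.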
